A study of Zygosaccharomyces bailii with 18 samples.

Results

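The genes described here are the chaperones and co-chaperones of the yeast *Zygosaccharomyces bailii* without the homologues of HSP26, HSP30, HSP42, HSP78, HSP104, HSP150 and SSA3. Members were chosen by name: 30 open reading frames (ORFs) whose *Saccharomyces cerevisiae* homologue belongs to the Hsp90, Hsp70, J-protein, Hsp60/Hsp10, TRiC or cyclophilin families or to a few related folding factors. They are 30 of the 1701 ORFs listed in any of the 6 deposited comparison tables, and 30 of the 1296 listed ORFs that have a named homologue. Homologue names were taken from the study's tables of changed genes. An ORF that changed in none of the comparisons covered there could therefore not become a member, and most of those names belong to genes that differed between the strains in copper. Being listed at all is thus largely set by the choice of members. The choice by name uses no direction, but the names were chosen with earlier results of these data known.

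RNA was measured in 18 cultures that fell into 6 groups of 3 libraries. Cells of the parental strain IST302 (wild-type) and of the derived deletion mutant Zbhaa1∆, which lacks the transcription factor gene ZbHAA1, were grown in minimal medium with glucose at pH 4.0. They were taken unstressed, after 1 h with 140 mM acetic acid, or after 1 h with 0.08 mM copper, given as copper sulphate. The unstressed cells were harvested at the start of the exposure, 1 h before the stressed cells, so that a stress and 1 h of further growth cannot be told apart. All of the mutant values come from a single derived strain. A 3′ tag method was used, in which each transcript is counted near its end.

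The deposited tables hold, for each comparison of 2 groups, the log2 fold change, the average level in log2 CPM (a count scaled to library size) and the false discovery rate (FDR) of the genes with a fold change of at least 1.5 and an FDR below 0.05. A gene that passed both thresholds is called listed here. A gene not listed may have changed by less, have been too variable or have been left out for low counts, and these cannot be told apart. The tables hold no value per library. The level of each group was therefore worked out from the average level and the fold change of a gene and is called its implied level. An approximate standard error was worked out from the fold change and the FDR, which overstates the true error, since the FDR is larger than the p-value. Since listing requires an FDR below 0.05, the interval built this way lies on one side of 0 for every listed gene, and that side is no result. According to the methods of the study the 3 libraries of a group come from separate experiments, in each of which the 3 flasks of a strain were started from a common culture. No check of the deletion was possible through ZbHAA1 (ZBIST_2620), which 0 of the 6 tables list.

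Chaperones bind proteins that are not, or no longer, folded. Hsp70 proteins hold exposed hydrophobic stretches in a cycle of ATP binding and hydrolysis, which J-proteins start and nucleotide exchange factors reset. Hsp90 acts later, on nearly folded clients such as kinases, with co-chaperones that bring clients, set the pace of its ATP cycle or stabilise its closed form. Chaperonins such as TRiC in the cytosol and Hsp60 in mitochondria enclose a substrate in a chamber. In *S. cerevisiae* many of these genes are driven by the heat shock factor, while the chaperones that sit on the ribosome are expressed together with ribosomal proteins. The roles given for single genes below are those of the *S. cerevisiae* homologues.

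In copper, 25 of the 30 chaperone genes had higher mRNA levels in Zbhaa1∆ than in the parental strain, 4 had lower levels, and only the cyclophilin gene CPR1 was not listed. That 29 of 30 were listed at all stands beside 82.3% of the listed ORFs with a named homologue. The share of all tested genes listed as higher in this comparison was 13.5%, and that of lower genes was 12.9%. Among the named ORFs, from which the members had to come, 40.3% were higher and 42.1% were lower. The members thus stood on the higher side at 25 of 30, whereas the named ORFs were split about evenly. The median log2 fold change of the 29 listed members was 1.21. No listed gene has a value near 0, so sizes are compared within a direction.

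Most of the higher members differed by more than 2-fold. The median log2 fold change was 1.45 over the 25 higher members 0.85 over the 497 other higher genes with a named homologue and 0.88 over all 663 higher genes. It was -0.77 over the 4 lower members and -1.03 over all 638 lower genes. Of the 25, 2 rose more than 4-fold, 16 between 2-fold and 4-fold, and 7 between 1.5-fold and 2-fold. Of all 663 higher genes, 267 were above 2-fold. When the higher genes were ordered by fold change, 13 of the 25 members were among the first 100. Implied standard errors of the 29 members ranged from 0.27 to 0.63 on the log2 scale, with a median of 0.36. Of the 25 higher members, 18 had an FDR below 0.001 and 22 an FDR below 0.01.

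**Figure D1:**
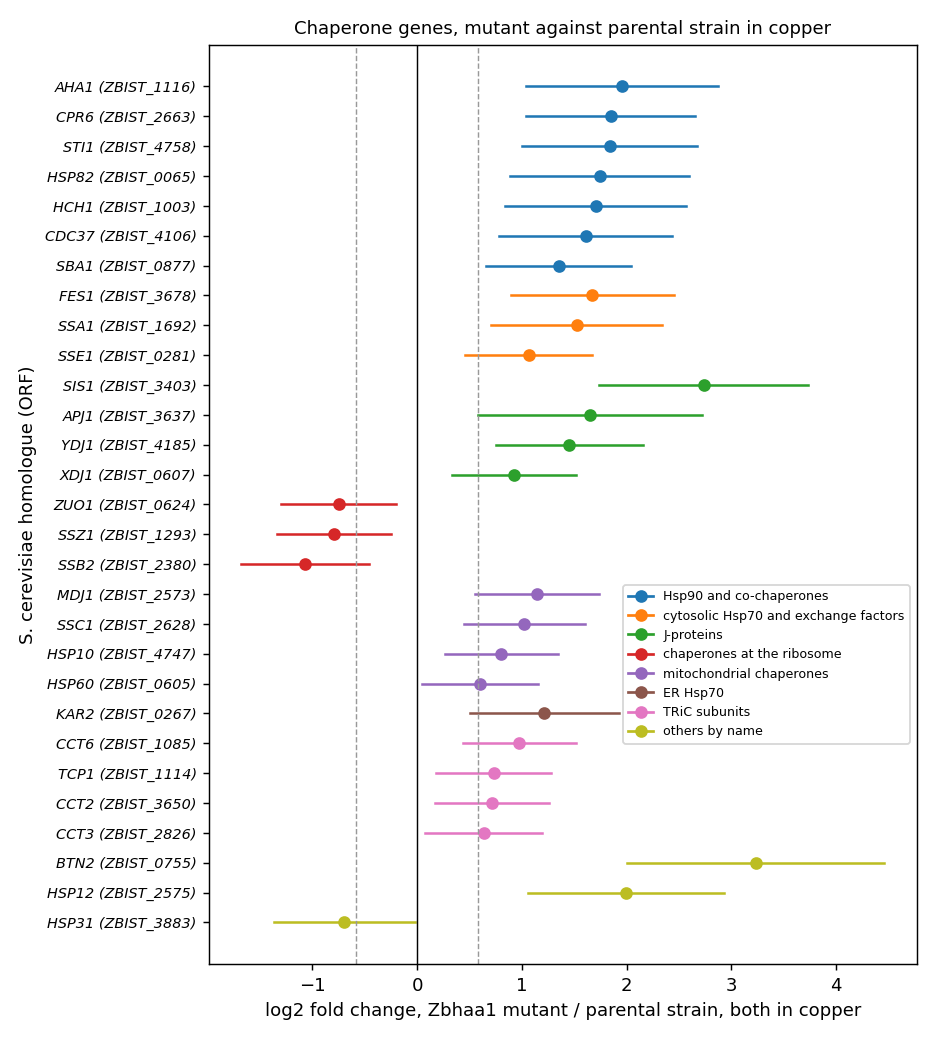
Log2 fold change between Zbhaa1∆ and the parental strain, both in copper, of the 29 listed chaperone genes, grouped and coloured by role (points), with approximate 95% intervals worked out from the FDR (lines). Dashed lines mark the fold change threshold of 1.5 in either direction. The 7 genes of the Hsp90 system lie between 1.35 and 1.96, and the 3 ribosome-bound chaperones lie on the other side of 0.

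The members that code for Hsp90 and its co-chaperones all had higher levels in this comparison. Of these, 7 of 7 exceeded the parental strain by more than 2-fold, and their median log2 fold change was 1.74. Of the 1296 named ORFs, 40.3% were higher, 198 of them by more than 2-fold, and 42.1% were lower. These shares stand beside each count by role below. The roles were set with earlier results known and keep the chaperones at the ribosome apart from other Hsp70s and J-proteins. HSP82, the homologue of Hsp90 itself (ZBIST_0065), had an implied level of 5525 CPM in parental and 18491 CPM in mutant cells in copper. This is a log2 fold change of 1.74 with an approximate 95% interval of 0.89 to 2.60 (FDR 6.33e-05). STI1 (ZBIST_4758), which links Hsp70 to Hsp90, had implied levels of 165 and 590 CPM and a log2 fold change of 1.84 (FDR 1.55e-05). CDC37 (ZBIST_4106), which brings protein kinases to Hsp90, had implied levels of 59.0 and 180 CPM and a log2 fold change of 1.61 (FDR 1.28e-04).

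The factors that act on the ATP cycle of Hsp90 showed differences of the same order. AHA1 (ZBIST_1116), which speeds up ATP hydrolysis, went from an implied 596 CPM in the parental strain to 2315 CPM in the mutant, a log2 fold change of 1.96 (FDR 3.01e-05). HCH1 (ZBIST_1003), a smaller relative of AHA1, went from 493 to 1606 CPM, a log2 fold change of 1.70 (FDR 1.11e-04). SBA1 (ZBIST_0877), the p23 homologue that holds the closed form of Hsp90, had the smallest difference of the group, with a log2 fold change of 1.35 and an interval of 0.65 to 2.05. CPR6 (ZBIST_2663), a cyclophilin that docks on Hsp90, had implied levels of 146 and 526 CPM and a log2 fold change of 1.85. The intervals of these 7 genes overlapped throughout, and no order among them was tested.

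The cytosolic Hsp70 SSA1 and its exchange factors were higher in 3 of 3 cases. SSA1 (ZBIST_1692), the main cytosolic Hsp70, had implied levels of 6490 CPM in parental and 18631 CPM in mutant cells, a log2 fold change of 1.52 with an interval of 0.71 to 2.34 (FDR 2.51e-04). FES1 (ZBIST_3678), which releases nucleotide and substrate from Hsp70, went from 63.9 to 204 CPM, a log2 fold change of 1.67 (FDR 2.42e-05). SSE1 (ZBIST_0281), an Hsp110 that also acts as an exchange factor, went from 1421 to 2968 CPM, a log2 fold change of 1.06 (FDR 5.81e-04). How reads shared by SSA1 and its relative SSA3 (ZBIST_2207) were assigned is not given in the sources used here, so the split between these genes is uncertain.

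The J-proteins of the cytosol and nucleus that are not bound to the ribosome were higher in 4 of 4 cases, with a wide range of sizes. SIS1 (ZBIST_3403), an essential J-protein that directs Hsp70 to misfolded and aggregated proteins, had implied levels of 59.4 CPM in the parental strain and 395 CPM in the mutant. Its log2 fold change was 2.73 with an interval of 1.74 to 3.73 (FDR 7.89e-08), the lowest FDR of the 29 members. YDJ1 (ZBIST_4185), the general J-protein of the cytosol, went from 708 to 1939 CPM, a log2 fold change of 1.45 (FDR 5e-05). The interval of YDJ1, from 0.75 to 2.16, overlapped that of SIS1.

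The other J-proteins of this group had larger FDR values. APJ1 (ZBIST_3637), a J-protein of the nucleus, had implied levels of 27.6 and 86.5 CPM and a log2 fold change of 1.65, with a wide interval of 0.58 to 2.72 (FDR 0.00244). XDJ1 (ZBIST_0607), a J-protein linked to import into mitochondria, had implied levels of 26.3 and 50.0 CPM and a log2 fold change of 0.93 (FDR 0.00222). Together with HSP31 they were the 3 listed members below 50 CPM in the parental strain in copper, on the scale of counts per library.

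The chaperones bound to the ribosome went the opposite way: 3 of 3 were lower in the mutant in copper. SSB2 (ZBIST_2380), the Hsp70 that binds nascent chains, had an implied level of 3734 CPM in the parental strain and 1781 CPM in the mutant, a log2 fold change of -1.07 with an interval of -1.68 to -0.46 (FDR 6.01e-04). SSZ1 (ZBIST_1293) and ZUO1 (ZBIST_0624), the Hsp70-like protein and the J-protein that form the ribosome-associated complex and stimulate that Hsp70, had log2 fold changes of -0.80 (FDR 0.00411) and -0.75 (FDR 0.00707). Implied levels of SSZ1 went from 538 to 309 CPM and those of ZUO1 from 222 to 132 CPM.

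Beside these, 75 of 75 listed homologues of cytosolic ribosomal protein genes were lower in the same comparison. The share of lower genes was 42.1% of the named ORFs and 12.9% of all tested genes. The median log2 fold change of the 75 was -1.25, with a range of -1.88 to -0.80. This list was taken with its result known. SSB2 lay inside that range, and SSZ1 and ZUO1 lay just beyond its upper end, that is closer to no difference. The Hsp70 gene of the cytosol and that of the ribosome thus differed in direction, at 1.52 for SSA1 and -1.07 for SSB2 on the log2 scale. In acetic acid against unstressed cells, 21 of the 75 ribosomal protein genes were higher in the mutant, beside 2.39% of the named ORFs. In the parental strain 2 were higher, beside 3.86%. No chaperone at the ribosome was listed in either of these comparisons.

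The members that act inside organelles were higher as well. In mitochondria 4 of 4 had higher levels, beside 40.3% of the named ORFs, and their median log2 fold change was 0.91. Mitochondrial J-proteins outside the choice by name differed in direction, with PAM18 lower at -1.12 and JAC1 higher at 0.81. SSC1 (ZBIST_2628), the Hsp70 of the matrix, went from an implied 767 to 1558 CPM, a log2 fold change of 1.02 (FDR 5.45e-04). MDJ1 (ZBIST_2573), its J-protein, went from 68.5 to 151 CPM, a log2 fold change of 1.15 (FDR 1.6e-04).

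The mitochondrial chaperonin had the smaller differences of these 4 genes. HSP60 (ZBIST_0605) had a log2 fold change of 0.60 (FDR 0.0349), which is just above the fold threshold, and its interval reached from 0.04 to 1.15. HSP10 (ZBIST_4747), the lid of that chamber, had a log2 fold change of 0.80 (FDR 0.00341). Implied levels were 1122 and 1697 CPM for HSP60 and 1008 and 1759 CPM for HSP10. In the endoplasmic reticulum, KAR2 (ZBIST_0267), the Hsp70 of that compartment, went from 1008 to 2339 CPM, a log2 fold change of 1.21 with an interval of 0.51 to 1.92 (FDR 7.71e-04).

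All 4 members that code for subunits of TRiC, the chaperonin of the cytosol that folds actin and tubulin, were higher, and none of them reached 2-fold. CCT6 (ZBIST_1085) had a log2 fold change of 0.98 (FDR 4.09e-04) and TCP1 (ZBIST_1114) one of 0.73 (FDR 0.0089). CCT2 (ZBIST_3650) and CCT3 (ZBIST_2826) had log2 fold changes of 0.72 (FDR 0.0103) and 0.63 (FDR 0.0252). Their implied levels lay between 85.0 and 210 CPM in the parental strain and between 140 and 412 CPM in the mutant. The remaining subunits of TRiC had no listed ORF under their names and are not analysed here.

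Of the 3 genes that belong to none of these families, 2 were among the largest differences of all members. BTN2 (ZBIST_0755), which sorts misfolded proteins into deposits, had an implied level of 76.7 CPM in the parental strain and 721 CPM in the mutant. Its log2 fold change was 3.23 with an interval of 2.00 to 4.46 (FDR 2.46e-07), the seventh among the 663 higher genes. HSP12 (ZBIST_2575), a small stress protein that lies against membranes, went from 606 to 2418 CPM, a log2 fold change of 2.00 (FDR 2.88e-05). HSP31 (ZBIST_3883), of the DJ-1 family with glyoxalase activity, was lower, with implied levels of 32.1 and 19.9 CPM and a log2 fold change of -0.69. Its FDR of 0.0435 and its interval, which ends at -0.02, make it the weakest of the 29 listed members.

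**Figure D2:**
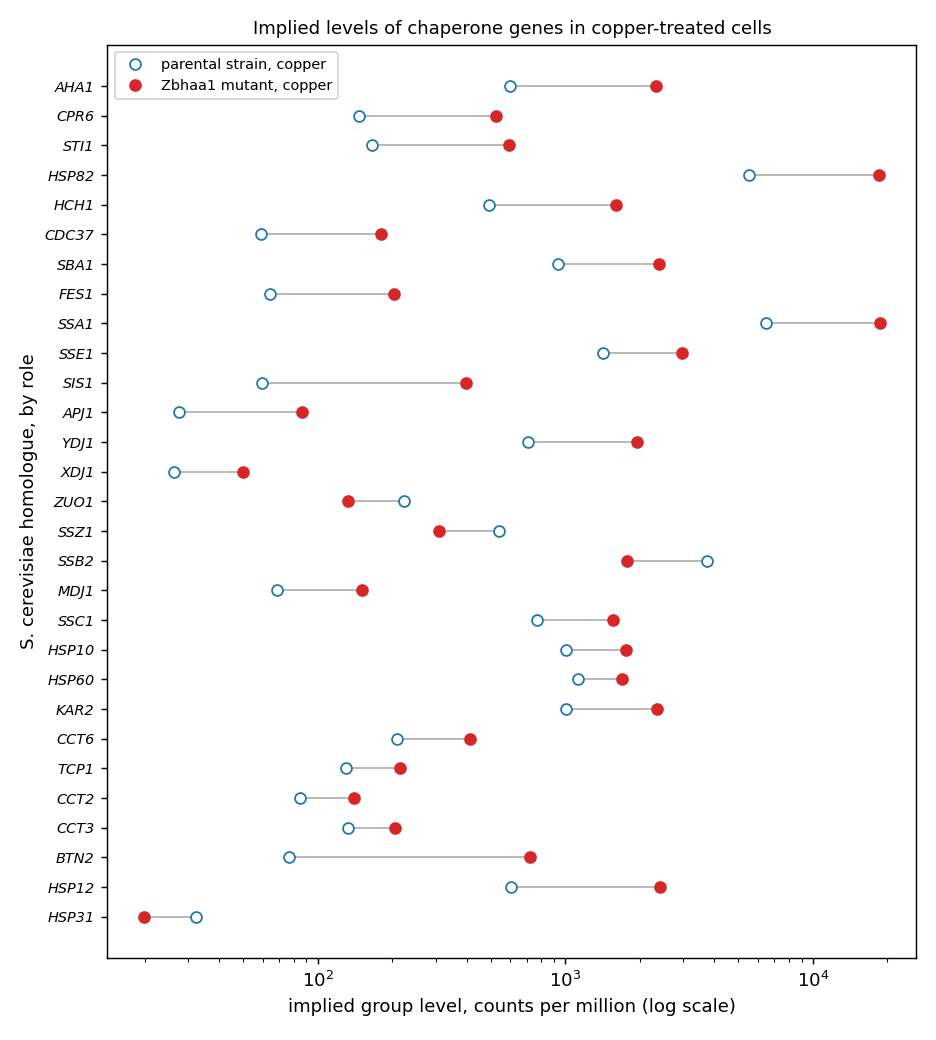
Implied group levels (CPM, logarithmic axis) of the 29 listed chaperone genes in the parental strain in copper (open circles) and in Zbhaa1∆ in copper (filled circles), joined by a line per gene. HSP82 and SSA1 start at 5525 and 6490 CPM and end at 18491 and 18631 CPM, and the filled circle lies to the left of the open one in 4 genes.

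In order of size among the 25 higher members, BTN2 stood 0.50 above SIS1 and SIS1 stood 0.74 above HSP12 on the log2 scale. From HSP12 down to HSP60 no step was larger than 0.14. In all 24 pairs of neighbours in that order the intervals overlapped, those of BTN2 and SIS1 and of SIS1 and HSP12 included. Of the 25 higher members, 6 had an interval that lay wholly above a log2 fold change of 1: BTN2, SIS1, HSP12, AHA1, CPR6 and STI1.

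Summed over genes, the 25 higher members took an implied 2.19% of the scaled counts in parental cells in copper and 6.20% in mutant cells, a ratio of 2.83. HSP82 and SSA1 alone took 1.20% and 3.71%. Without them the other 23 took 0.992% and 2.49%, a ratio of 2.51. By role, the ratio of summed implied levels was 3.29 for Hsp90 and its co-chaperones, 2.73 for SSA1 with its exchange factors and 3.01 for the J-proteins. It was 2.32 for KAR2, 1.75 for TRiC, 1.74 for the mitochondrial chaperones and 0.495 for the chaperones at the ribosome. CPM values are relative to library size, so that higher levels of some genes can lower the values of others. The study scaled its libraries by the trimmed mean of M-values (TMM). The percentages are therefore only approximate shares of a library.

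**Figure D3:**
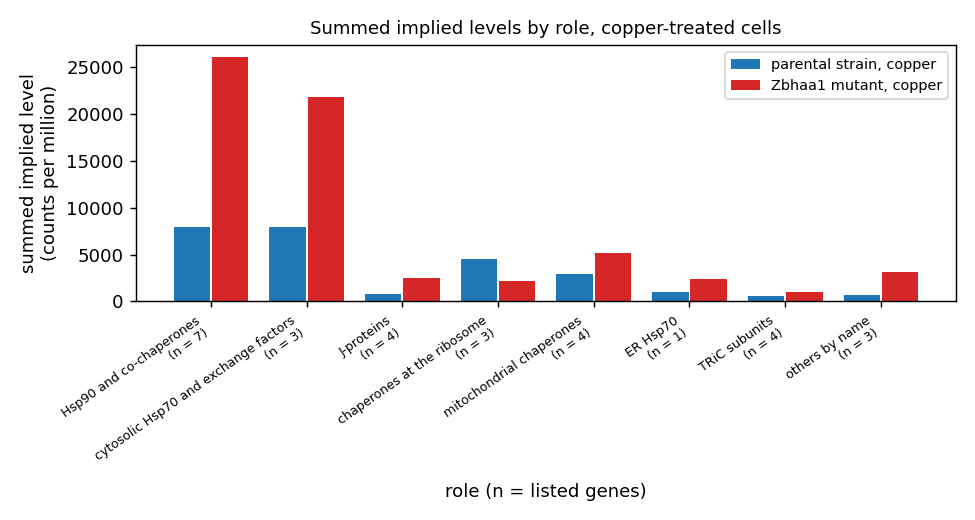
Summed implied levels (CPM) by role in copper-treated cells of the parental strain (blue) and of Zbhaa1∆ (red), with the number of listed genes under each bar pair. The Hsp90 group goes from 7921 to 26094 CPM and the group of SSA1 from 7974 to 21803 CPM, while the chaperones at the ribosome go from 4493 to 2223 CPM.

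In parental cells, 5 of the 30 members were higher after 1 h of copper than in unstressed cells, beside 2.45% of all tested genes and 7.18% of the named ORFs. None was lower, beside 1.4% of all tested genes and 4.55% of the named ORFs. All 5 differences were below 2-fold. Of the 5, 3 act on the ATP cycle of Hsp90: HCH1 with a log2 fold change of 0.82 (FDR 0.00797), SBA1 with 0.74 (FDR 0.0151) and AHA1 with 0.68 (FDR 0.0327). The other two were BTN2, with 0.98 (FDR 0.00923), and CPR1, with 0.75 (FDR 0.0156). HSP82 itself was not listed there, nor were SSA1, SIS1 or YDJ1.

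Implied levels of these genes rose from 274 to 485 CPM for HCH1, from 551 to 919 CPM for SBA1 and from 367 to 586 CPM for AHA1. BTN2 went from 38.4 to 75.6 CPM. CPR1 (ZBIST_4081), the abundant cytosolic cyclophilin, went from 6098 to 10256 CPM. Its approximate interval ran from 0.14 to 1.36 on the log2 scale.

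BTN2, HCH1, AHA1 and SBA1 were listed both for the response of the parental strain to copper and for the strain difference in copper, higher in each case. The tables of these comparisons share the parental copper libraries, so their values are not independent. Sums of these values, given further on, have no interval and were not tested. The parental copper level of a gene can be worked out from either table. Over the 105 genes in both, these implied levels differed by a median of 0.03 (SD 0.03) on the log2 scale, and by at most 0.03 for the 4 chaperone genes. With the sign of the strain difference turned round, the median would be 0.77 (SD 1.67), so the sign read here is mutant over parental. The titles of the study's supplementary lists describe these values, and those of the strain difference in acetic acid, as mutant cells under stress against unstressed cells, whereas the sample descriptions tie the tables to both strains under stress. The study's text also names unstressed cells as the reference. Where it selects ZbHaa1-dependent genes, however, it sets the stressed mutant against the parental strain under the same stress. The level check bears on this: set against unstressed parental cells, the implied reference level in the copper strain table differed by a median of 0.73 (SD 1.32) over the same 105 genes. For acetic acid, reference levels implied by the strain table were within a median of -0.05 (SD 0.02) of the parental levels under the same stress over 19 genes. The strain comparison is therefore used as the sample descriptions give it. Added up, the log2 fold changes place mutant cells in copper above unstressed parental cells by 4.21 for BTN2 (18.5-fold), 2.63 for AHA1 (6.20-fold), 2.53 for HCH1 (5.76-fold) and 2.09 for SBA1 (4.25-fold).

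**Figure D4:**
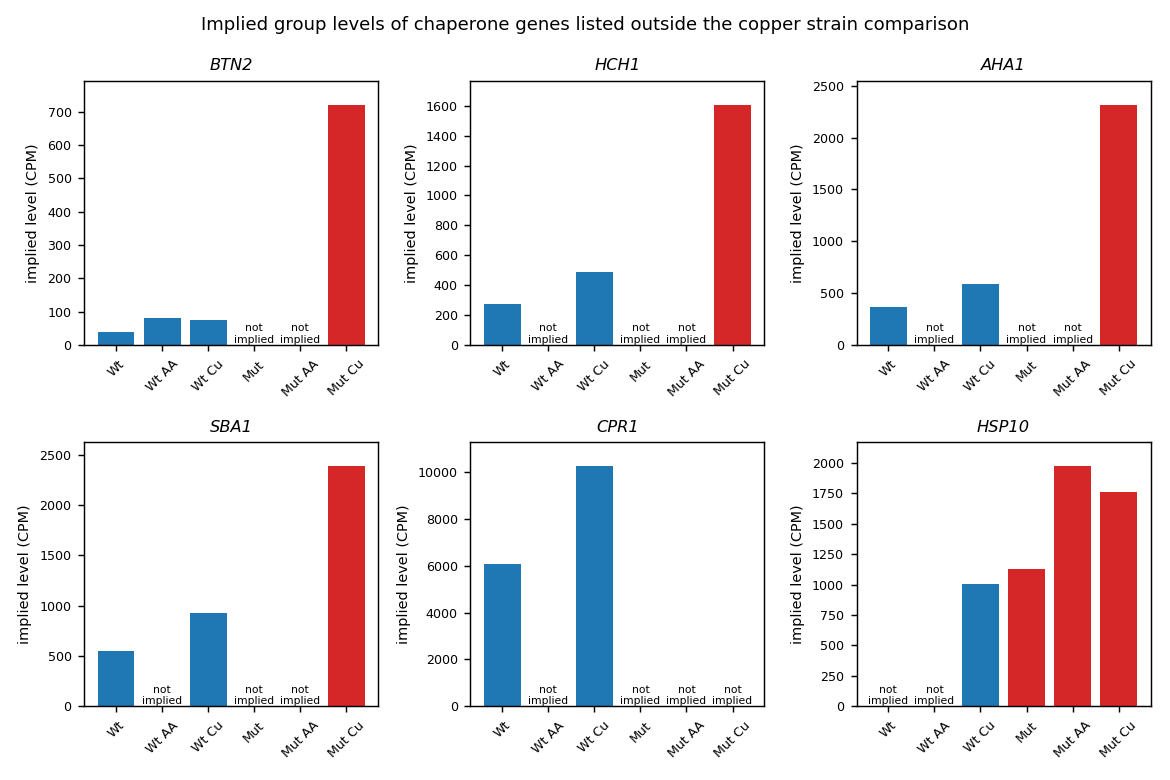
Implied group levels (CPM) of the 6 chaperone genes listed in a comparison other than the strain difference in copper, in parental (Wt, blue) and mutant (Mut, red) cells, unstressed or with acetic acid (AA) or copper (Cu). Bars without error are group values worked out from the tables, and groups for which no table lists the gene are marked as not implied. BTN2 stands at 38.4, 79.3 and 76.1 CPM in the parental groups and at 721 CPM in mutant cells in copper.

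In the parental strain BTN2 was the only member higher in acetic acid than in unstressed cells (1 of 30), a share near that of the named ORFs (3.86%), beside 1.34% of all tested genes. None was lower, beside 4.7% of all tested genes and 13.3% of the named ORFs. Its implied level went from 38.5 to 79.3 CPM, a log2 fold change of 1.04 with an interval of 0.59 to 1.49 (FDR 5.4e-06). This is close to its value in copper (0.98). Both responses were measured against the same unstressed libraries, and their difference was not tested.

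In the mutant, HSP10 was the only member that was higher in acetic acid than in unstressed cells, beside 2.39% of the named ORFs. Its implied level went from 1130 to 1972 CPM, a log2 fold change of 0.80 (FDR 1.94e-04). That the table concerned compares mutant cells in acetic acid with unstressed mutant cells was read from its name alone. HSP60, the partner of HSP10 in the chaperonin, was not listed there.

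Between the strains in acetic acid, 0 of the 30 members were listed in either direction, beside 2.85% of the named ORFs. Between the unstressed strains 0 were listed as well, beside 0.463% of the named ORFs. With shares this small, counts of 0 among 30 genes are near the background. Unadjusted p-values of unlisted genes were not used here. BTN2 was thus listed as higher in parental cells in acetic acid without being listed for the strain difference in that condition. Whether the responses of the strains differ for BTN2 was not tested.

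The heat shock genes that the choice by name left out were listed in acetic acid as well. HSP150, which codes for a secreted cell wall glycoprotein, is not counted among them here. Of the 8 ORFs named HSP26, HSP30, HSP42, HSP78, HSP104 or SSA3, 7 were lower in Zbhaa1∆ than in the parental strain in acetic acid. Their median log2 fold change was -1.22, and 2.85% of the named ORFs were listed there in either direction. All 8 were higher in the mutant in copper, with a median of 3.26, beside 40.3% of the named ORFs. In the parental strain, 3.86% of the named ORFs were higher in acetic acid and 7.18% in copper, beside 6 and 5 of the 8. Among them SSA3, an Hsp70 gene like SSA1, had log2 fold changes of 1.20 in acetic acid (FDR 3.59e-09), 1.37 in copper (FDR 8.31e-06), -1.24 for the strain difference in acetic acid (FDR 4.82e-08) and 4.50 for that in copper (FDR 7.15e-06). SSA1 was listed only for the last, at 1.52, and the difference between these genes was not tested.

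Over the 6 tables, 24 of the 30 members were listed solely for the strain difference in copper. A further 3, AHA1, HCH1 and SBA1, were listed there and for copper in the parental strain. BTN2 was listed in 3 tables, HSP10 in the strain difference in copper and in acetic acid in the mutant, and CPR1 for copper in the parental strain alone. The response of mutant cells to copper against unstressed mutant cells is not analysed here, so that the levels of most members before copper, in either strain, are known only through their not being listed.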

How the data were processed

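RNA of 18 cultures, 3 per group, was sequenced with a 3′ tag kit. Reads were aligned (STAR 2.5.2a), assigned to genes (HTSeq), filtered for low CPM and compared between groups (edgeR) by the authors. The log2 fold changes and average log2 CPM used here are those deposited by the authors from these comparisons. The FDR (adjusted p-value) of each gene was likewise computed by the authors and deposited beside them. These columns are the whole content of the 6 tables, which list a gene only if its fold change was 1.5 or more at an FDR under 0.05, so no test was run anew. The depth per library is unknown from the tables.

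Members were found by their *S. cerevisiae* homologue in the study's gene tables with a fixed set of name prefixes, and all 30 were named with their values. The members, roles and lists were chosen with earlier results of these data known. Group levels were worked out from the average log2 CPM and the log2 fold change, with equal weight of both groups on the linear scale. Standard errors were taken as the log2 fold change over the normal quantile of the FDR read as a two-sided p-value, and intervals cover 95%. For 4 of the 6 comparisons, how many genes had been tested was worked out from the p-values and FDR of 3 genes in the study's supplementary lists. Alternatives were an FDR below 0.01, a fold change above 2, an average log2 CPM of at least 4, other memberships and a log2 midpoint for the levels. The calculations of levels and standard errors were run on simulated data built on the same assumptions. This checks the arithmetic and cannot show how well these assumptions hold for the real libraries. Python 3.11.15, pandas 2.3.3, numpy 2.4.6, matplotlib 3.10.9 and scipy 1.17.1 were used.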

Additional observations from a re-analysis of the deposited data

How the results depend on the processing

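No paired analysis was possible because the tables hold no value per library; leaving out libraries was not run for the same reason, and promoters were not searched, since no genome sequence was used. With a fold change above 2, the listed members fell from 29 to 19 for the strain difference in copper (the lower ones from 4 to 1), from 5 to 0 for copper in the parental strain and from 1 to 0 for acetic acid in the mutant. With an FDR below 0.01, those for copper in the parental strain fell from 5 to 2. The other 24 values kept their direction and stayed within 1.5 times of the main count or within the spread. Some of them could not move, since counts of 0 stay at 0 under a stricter cut. The cut on average level removed no member either, the lowest being HSP31 at 4.70 log2 CPM. The median log2 fold change of 1.21 for the strain difference in copper became 1.45 with an FDR below 0.01, 1.21 with an average log2 CPM of at least 4, 1.18 without HSP12, HSP31 and BTN2, and 0.94 with the other folding factors added. With the log2 midpoint the median implied level moved from 7.79 to 7.84 log2 CPM, and single levels by up to 0.76.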

Other observations

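A list of 16 other folding and assembly factors, taken from the named ORFs with their results known, was split in copper. Of the 13 listed for the difference between Zbhaa1∆ and the parental strain, 6 were higher and 7 lower, with a median log2 fold change of -0.68. ERO1, the thiol oxidase of the endoplasmic reticulum, was higher by 1.75 (FDR 3.21e-05) and UMP1, which assembles the proteasome, by 0.95 (FDR 6.74e-04). SGT1, an Hsp90 co-chaperone, was higher by 0.79 (FDR 0.00938). RRB1, YAR1 and TSR2, which escort ribosomal proteins, were lower, with log2 fold changes of -1.99, -1.53 and -1.01, whereas SQT1, another such escort, was higher, at 0.61 (FDR 0.0323). PAM18, the J-protein at the mitochondrial import channel, was lower as well, at -1.12 (FDR 2.38e-04), whereas SSC1, the Hsp70 it stimulates, was higher at 1.02. FPR3, a nucleolar prolyl isomerase, was lower in the mutant in copper, at -1.36, and in parental cells in copper against unstressed ones, at -0.71.

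In 3 places, pairs of chaperone genes lie close together on a contig in the annotation of this strain. TCP1 and AHA1 are separated by 1 gene, and HSP60 and XDJ1, as well as MDJ1 and HSP12, by 2 genes. None of the genes in between was listed in the strain comparison in copper, beside 13.5% of all tested genes listed as higher and 12.9% as lower. All 6 chaperone genes were higher there, as were 25 of the 30 members. How often genes lie this close was not worked out, and a link between position and expression was not tested.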
